A study of Mus musculus with 11 samples.

Results

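The genes described here make and load major histocompatibility complex (MHC) class I molecules: H2-K1 and H2-D1, the classical heavy chains; B2m, their light chain; Tap1, Tap2 and Tapbp, which bring peptides into the endoplasmic reticulum and onto the chain; Psmb8, Psmb9 and Psmb10, the catalytic subunits of the immunoproteasome; and Nlrc5, the transactivator of class I genes. They were chosen by name for these roles, with earlier results of these data known. They are 10 of the 55487 gene identifiers in the count files, and all 10 had enough counts to be tested. RNA was sequenced from whole embryonic mouse hearts at E14.5, 1 heart per library, from 5 Pde2A-/- and 6 Pde2A+/+ embryos that received no treatment. Both genotypes came from matings of heterozygous mice of the B6; 129P2 tm1Dgen line, in which the targeted allele is constitutive, so every cell type of the embryo lacked PDE2A, the phosphodiesterase that degrades cAMP and cGMP. The comparison asked how the absence of this enzyme altered heart transcripts, and the replicate names (A, B, 14, D and 15 for Pde2A-/-, and 7, 11, 6, 8, H and E for Pde2A+/+) carry no stated litter, batch or sex.

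Class I molecules show peptides from the cell interior to CD8 T cells and natural killer cells. The proteasome cuts proteins into peptides, and in the immunoproteasome the constitutive catalytic subunits Psmb5, Psmb6 and Psmb7 are replaced by Psmb8, Psmb9 and Psmb10, respectively. Interferons raise these genes in many cell types through STAT and IRF factors and through NLRC5, while cardiomyocytes are known for low class I levels.

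The sense-strand counts of a heart summed to between 35865537 and 42835382. Levels are given as CPM, counts scaled to a common normalized library size. The 10 cardiomyocyte markers summed to 32937 to 43699 CPM in the 11 hearts, so the labelled tissue was present in each. The gene identifier matched to Pde2a had 0 to 2 counts in each heart of both genotypes, 7 in all. Its overlap with other genes, where reads are left uncounted, was not examined. These counts thus do not give the level of Pde2a in either genotype and could not check the genotype labels. The heart labelled Pde2A+/+ replicate 7 stood apart. It held 10.9 CPM of Foxn1, the transcription factor of thymic epithelium, and 26.6 CPM of Psmb11, the thymus-specific proteasome subunit, whereas no other heart had more than 2 counts of either. Its 15 T cell, natural killer cell and thymus markers summed to 182 CPM, against 3.28 to 6.22 CPM in the other 10 hearts. Results that rest on this heart are given with and without it. Pde2A-/- replicate D and Pde2A+/+ replicates 11, H and E held 11.5 to 46.6 CPM of Alb, the liver albumin gene, and the other 7 hearts at most 0.678 CPM. The 6 lung markers summed to 7.53 CPM in Pde2A+/+ replicate 11 and to 0.384 to 0.747 CPM in the other 10 hearts.

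Of the 10 genes, 7 lie in the MHC on chromosome 17 (GENCODE M21, GRCm38), between Tapbp (33915899 to 33929292) and H2-D1 (35262730 to 35267499), with H2-K1 at 33996017 to 34000347. Psmb9, Tap1, Psmb8 and Tap2 follow each other within 34.3 kb, from 34181987 to 34216321. Psmb9 and Tap1 are transcribed away from each other from a common start region, and their promoter windows of 250 bases before to 50 after the start share 275 bases. B2m lies on chromosome 2 (122147686 to 122153083), and Nlrc5 (94434356 to 94527272) and Psmb10 (105935735 to 105938444) on chromosome 8, so none is on chromosome 7, where Pde2a lies. Of the other 82 genes tested in the same stretch of the MHC, without the H2 genes, 7 were higher in Pde2A-/- hearts (8.54%) and 3 lower, with a median log2 fold change of -0.04.

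The hearts lacking PDE2A held more of most class I transcripts. By edgeR's quasi-likelihood test, 6 of the 10 genes were higher in Pde2A-/- hearts at an adjusted p under 0.05 (H2-K1, H2-D1, B2m, Tap1, Tapbp and Nlrc5) and 0 were lower. Of all 24177 genes tested, 8.93% were higher and 5.67% lower by the same rule. Tap1 and Nlrc5 also passed a fold change of 2, which 2.21% of all genes did on the higher side. Every Pde2A-/- heart lay above every Pde2A+/+ heart for 4 of the 10 genes (H2-D1, B2m, Tapbp and Nlrc5), against 5.38% of all genes, and below for 0, against 3.11%. The median log2 fold change of the 10 genes was 0.64, and that of all genes tested was -0.02. Without Pde2A+/+ replicate 7, Psmb8, Psmb9 and Tap2 joined the 6 genes, so that 9 of the 10 were higher against 7.64% of all genes, and 0 lower against 3.57%. In that fit 5 genes passed a fold change of 2 (2.31% of all genes), 8 did not overlap between genotypes (6.43%), and the median log2 fold change of the 10 was 0.99. Psmb10 passed in neither fit. Because the 10 genes were chosen with earlier results of these data known, these counts describe them and are no test of the set.

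**Figure D1:**
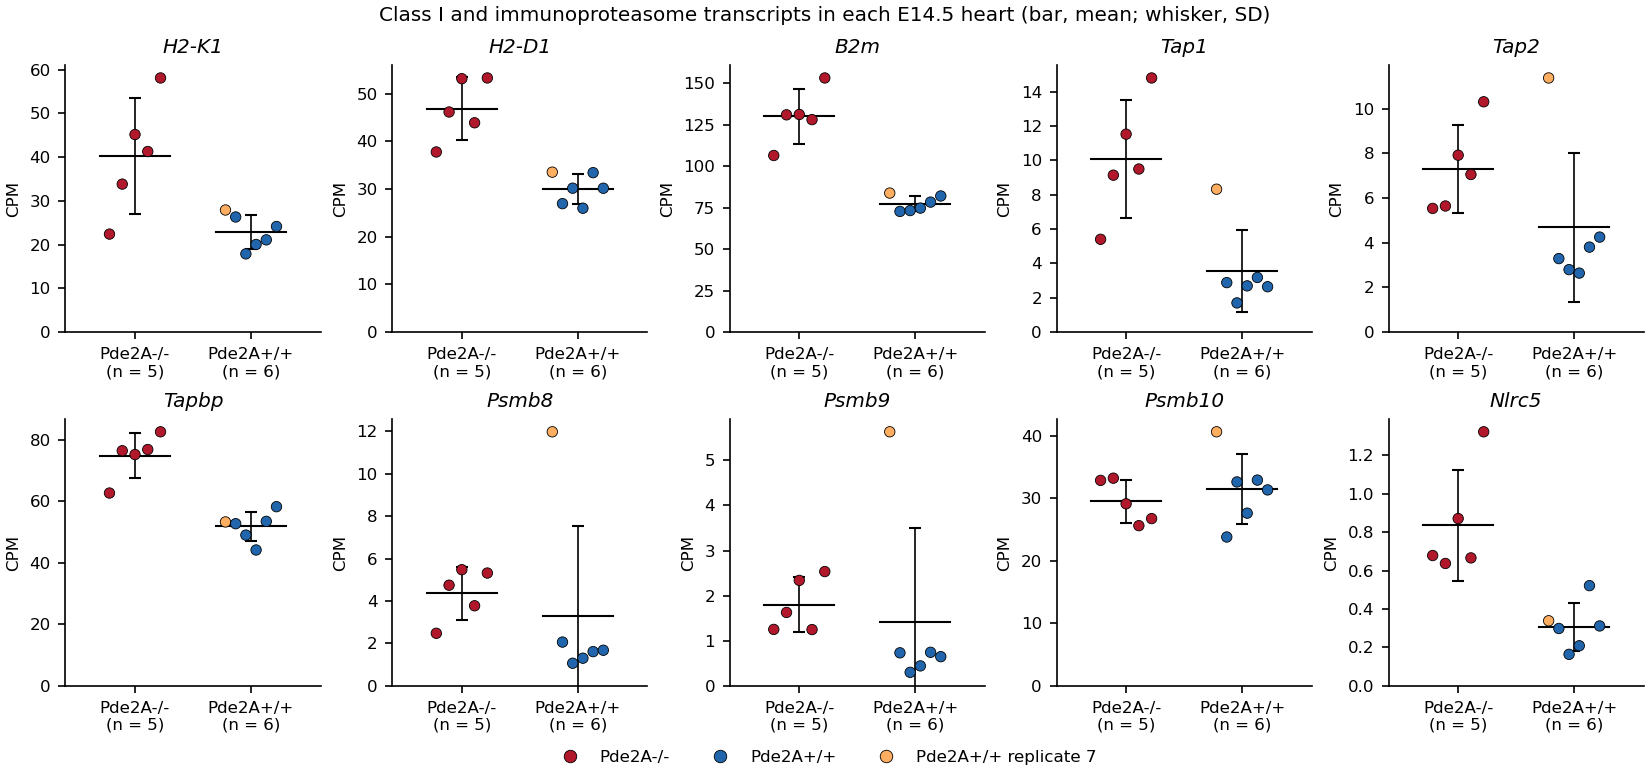
CPM of each gene (y axes, linear from 0, a separate scale per gene) in every heart, by genotype on the x axis, with the mean as a bar and the SD as a whisker over all hearts of the genotype, cut at 0 where it would pass below. Pde2A+/+ replicate 7, in orange, lies above every Pde2A-/- heart for Tap2, Psmb8, Psmb9 and Psmb10, and with the other 5 Pde2A+/+ hearts for Tapbp and Nlrc5.

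The chains of the class I molecule were 1.56 to 1.75 times as high in Pde2A-/- hearts. H2-K1 measured 22.4, 33.8, 45.2, 41.3 and 58.1 CPM in Pde2A-/- replicates A, B, 14, D and 15, and 17.9 (lowest), 22.6 (median) and 27.9 (highest) CPM in the 6 Pde2A+/+ hearts. Of the 5 Pde2A-/- hearts, 4 lay above all Pde2A+/+ hearts, and replicate A lay among them. The log2 fold change was 0.81 ± 0.19 (SE, n = 5 and 6, edgeR adjusted p = 0.0167). H2-D1, the second classical heavy chain, measured 37.8, 46.1, 53.1, 43.9 and 53.3 CPM in the Pde2A-/- hearts in the same order, against 26.0, 30.2 and 33.5 CPM (lowest, median and highest) in Pde2A+/+ hearts. The genotypes did not overlap, and the log2 fold change was 0.64 ± 0.10 (SE, edgeR adjusted p = 0.000939).

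B2m encodes beta-2 microglobulin, the light chain of the class I molecule. It measured 106, 131, 131, 128 and 153 CPM in Pde2A-/- replicates A, B, 14, D and 15, and 72.7, 76.5 and 83.8 CPM (lowest, median and highest) in Pde2A+/+ hearts. Every Pde2A-/- heart was above every Pde2A+/+ heart. The means were 129.9 ± 16.6 and 77.5 ± 4.67 CPM (SD, n = 5 and 6), and the log2 fold change of 0.75 ± 0.08 had the smallest adjusted p of the 10 genes (edgeR, 4.83e-05). Per kilobase of exon, B2m was the most abundant of the 10, with 151 CPM per kb in Pde2A-/- and 90.1 CPM per kb in Pde2A+/+ hearts, against 18.2 and 11.6 for H2-D1 and 13.7 and 7.80 for H2-K1. H2-K1 and H2-D1 share 9.63% and 12.8% of the 50-base stretches of their transcripts with genes at other loci, mostly other class I genes, so part of their reads cannot be assigned to a single gene. B2m shares none.

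The start regions of the chain genes hold short sequences that the factors named above are known to bind, and are shown here because H2-K1, H2-D1 and B2m were higher together. RefSeq promoter windows (GRCm38.p6, 250 bases before to 50 after the start) were held for 8 of the 10 genes. The windows were searched on both strands for AANNGAAA, the core of an IRF site, for the longer interferon-stimulated response element, in which GA stands directly before that core, and for TTCNNNGAA, a STAT (GAS) site, as well as for TGACGTCA, the cAMP response element, and CCAAT, the NF-Y box. The IRF core was in 3 of the 8 windows, those of H2-K1, H2-D1 and B2m, and in 23.9% of all 32544 promoter windows. The longer element was in the B2m window alone, and in 3.45% of all windows. The GAS letters were in the Psmb8 window alone, and in 8.33% of all windows. The windows of Tap1 and Tapbp, genes that were also higher, held none of these motifs. CCAAT was in 6 of the 8 windows and in 37.4% of all. The matches in Tap1 and Psmb9 are the same site, in the stretch their windows share, counted for both genes. TGACGTCA was in 0 of the 8 and in 1.80% of all. Only the full letters TGACGTCA were searched for, so shorter or altered forms of the cAMP response element were not counted. The 250 bases before the start are printed in the direction of transcription, with capitals for the IRF core in H2-K1 and H2-D1, for the response element in B2m and for the GAS letters in Psmb8. They lie at chr17:34000348-34000597 (minus strand) for H2-K1, chr17:35262844-35263093 (plus strand) for H2-D1, chr2:122147437-122147686 (plus strand) for B2m and chr17:34197945-34198194 (plus strand) for Psmb8.
H2-K1: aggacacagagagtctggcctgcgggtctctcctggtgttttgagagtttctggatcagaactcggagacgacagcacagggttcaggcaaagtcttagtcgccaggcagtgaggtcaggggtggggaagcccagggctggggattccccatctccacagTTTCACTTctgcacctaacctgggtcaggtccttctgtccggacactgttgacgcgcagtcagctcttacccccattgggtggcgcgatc
H2-D1: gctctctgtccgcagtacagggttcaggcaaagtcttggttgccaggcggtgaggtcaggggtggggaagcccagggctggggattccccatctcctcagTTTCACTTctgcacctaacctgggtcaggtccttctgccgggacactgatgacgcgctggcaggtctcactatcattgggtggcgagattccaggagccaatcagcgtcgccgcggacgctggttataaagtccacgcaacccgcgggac
B2m: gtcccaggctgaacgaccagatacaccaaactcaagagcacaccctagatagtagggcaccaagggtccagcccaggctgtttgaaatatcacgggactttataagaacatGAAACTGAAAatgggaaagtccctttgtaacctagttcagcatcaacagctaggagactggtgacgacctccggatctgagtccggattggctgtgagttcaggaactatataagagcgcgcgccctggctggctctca
Psmb8: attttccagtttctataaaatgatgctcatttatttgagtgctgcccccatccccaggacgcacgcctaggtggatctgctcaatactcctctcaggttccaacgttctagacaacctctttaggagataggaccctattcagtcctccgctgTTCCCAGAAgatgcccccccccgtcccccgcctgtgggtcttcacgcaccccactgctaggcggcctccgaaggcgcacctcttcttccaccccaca
The IRF core lies 90 bases before the RefSeq start in H2-K1 and 150 before it in H2-D1, on the minus strand of the window in both. It lies just after a run of 47 bases that the windows of these genes share. That run holds a kappaB site, a motif found in the windows of H2-K1, H2-D1 and B2m and in 8.49% of all windows. In B2m the response element begins 139 bases before the start. The RefSeq start lies 364 bases from the GENCODE start in H2-D1 and 474 bases from it in Psmb8, and at most 1 base in H2-K1 and B2m. In the windows not printed, it lies 3579 bases from it in Tapbp, 434 in Psmb9, 52 in Psmb10 and 3 in Tap1. The motifs found or missing thus hold for the RefSeq windows only. A match gives letters only, and binding was not measured in these hearts.

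Of the transporter and loading genes, Tap1 and Tapbp were higher over all 11 hearts and Tap2 without replicate 7. Tap1, one chain of the transporter that moves peptides into the endoplasmic reticulum, measured 5.40, 9.13, 11.5, 9.49 and 14.8 CPM in Pde2A-/- replicates A, B, 14, D and 15, and 1.70, 2.79 and 8.32 CPM (lowest, median and highest) in Pde2A+/+ hearts. The highest Pde2A+/+ value was that of replicate 7, and the next was 3.18 CPM, below every Pde2A-/- heart. Tap1 was 2.82 times as high in Pde2A-/- hearts (log2 fold change 1.49 ± 0.35, SE, edgeR adjusted p = 0.016) and 3.84 times without replicate 7 (adjusted p = 0.000302). Tap2, the other chain of the transporter, measured 5.53, 5.64, 7.91, 7.05 and 10.3 CPM in Pde2A-/- hearts and 2.64, 3.55 and 11.4 CPM in Pde2A+/+ hearts. Its difference did not pass the test over 11 hearts, with a 95% interval of the log2 fold change from -0.11 to 1.38 (edgeR adjusted p = 0.236). Without replicate 7 the genotypes did not overlap, and Tap2 was 2.17 times as high (edgeR adjusted p = 0.0029).

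Tapbp encodes tapasin, which holds empty class I molecules at the transporter. It measured 62.7, 76.4, 75.2, 76.8 and 82.6 CPM in Pde2A-/- hearts and 44.2, 53.0 and 58.3 CPM (lowest, median and highest) in Pde2A+/+ hearts. The genotypes did not overlap and the spread was small, with means of 74.7 ± 7.32 and 51.8 ± 4.76 CPM (SD). The log2 fold change of 0.53 ± 0.08 (SE, edgeR adjusted p = 0.000805) was the smallest of the 6 called. Of the Tapbp exons, 4.11% overlap Zbtb22 on the same strand, and reads there were counted for neither gene.

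The immunoproteasome subunits differed from each other. Psmb8, also called LMP7, measured 2.48, 4.74, 5.47, 3.77 and 5.32 CPM in Pde2A-/- replicates A, B, 14, D and 15, and 12.0 CPM in Pde2A+/+ replicate 7. The other 5 Pde2A+/+ hearts held 1.07 to 2.07 CPM, all below the lowest Pde2A-/- heart. Psmb9, also called LMP2, measured 1.25, 1.63, 2.34, 1.25 and 2.53 CPM in Pde2A-/- hearts, 5.63 CPM in Pde2A+/+ replicate 7 and 0.301 to 0.746 CPM in the other 5. For both genes the order was replicate 7, then the 5 Pde2A-/- hearts, then the other Pde2A+/+ hearts. Over 11 hearts neither passed the edgeR test, with log2 fold changes of 0.41 ± 0.57 (SE, adjusted p = 0.685) for Psmb8 and 0.34 ± 0.64 (adjusted p = 0.776) for Psmb9. Without replicate 7 both did, at 1.49 ± 0.23 (adjusted p = 0.00154) and 1.64 ± 0.29 (adjusted p = 0.00362). Psmb9 had 11 to 216 counts per heart, so its levels are the least precise of the subunits.

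Psmb10, also called MECL-1, did not follow them. It measured 32.9, 33.2, 29.1, 25.6 and 26.8 CPM in Pde2A-/- hearts, and 23.8, 32.0 and 40.6 CPM (lowest, median and highest) in Pde2A+/+ hearts. The genotypes overlapped throughout, and the 95% interval of the log2 fold change ran from -0.35 to 0.16, or from -0.23 to 0.21 without replicate 7. Per kilobase of exon, Psmb10 stood at 17.3 CPM per kb in Pde2A-/- and 18.5 in Pde2A+/+ hearts, against 1.29 and 0.971 for Psmb8 and 0.492 and 0.387 for Psmb9. Without replicate 7 the Pde2A+/+ means were 17.4 CPM per kb for Psmb10, 0.458 for Psmb8 and 0.157 for Psmb9. Part of the gap between Psmb10 and the other subunits comes from the annotated exon lengths, 1705 bases for Psmb10, 3381 for Psmb8 and 3660 for Psmb9. Among Pde2A-/- hearts, Psmb10 was highest in B and A, and replicate A was the lowest of them for 7 of the 10 genes.

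**Figure D2:**
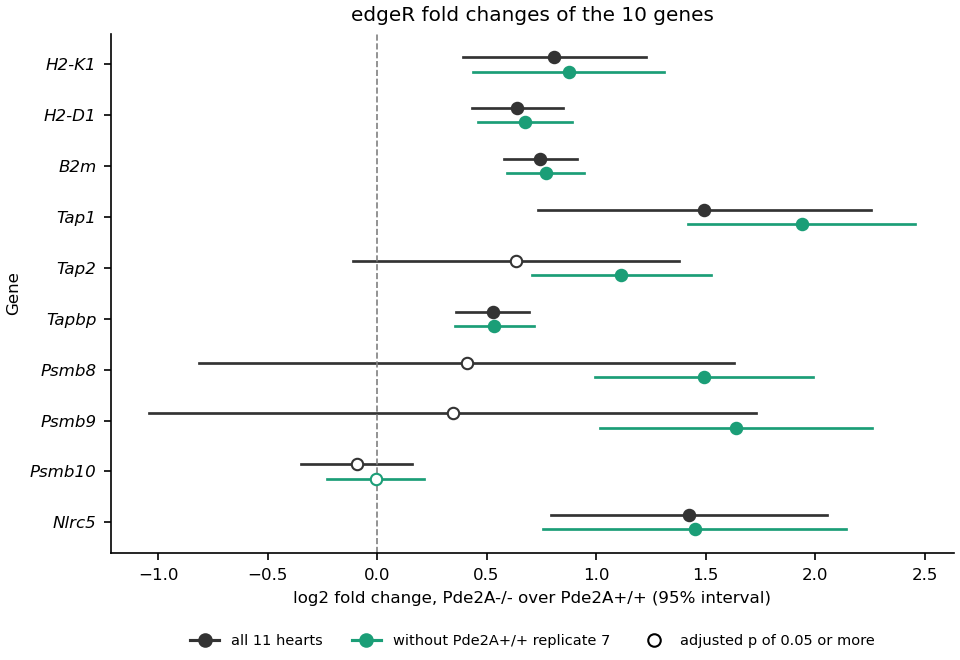
The log2 fold change of each gene, Pde2A-/- over Pde2A+/+ (x axis, with its 95% interval), over all 11 hearts in grey and without Pde2A+/+ replicate 7 in green, with open points for an adjusted p of 0.05 or more. The intervals of Psmb8 and Psmb9 span 0 over 11 hearts and lie above 0 without replicate 7, whereas that of Psmb10 spans 0 in both.

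The amount of each immunoproteasome subunit was set against the constitutive subunit it replaces, within each heart and per kilobase of exon. Psmb8 stood at 1.82%, 3.41%, 4.18%, 3.43% and 4.97% of Psmb5 in Pde2A-/- replicates A, B, 14, D and 15, at 7.76% in Pde2A+/+ replicate 7 and at 0.647% to 1.49% in the other 5 Pde2A+/+ hearts. Psmb9 stood at 0.462% to 1.10% of Psmb6 in Pde2A-/- hearts, at 1.82% in Pde2A+/+ replicate 7 and at 0.0996% to 0.256% in the other 5. These percentages depend on the length used, that of all annotated exons merged, which was 3381 bases for Psmb8 and 3660 for Psmb9. By counts alone, Pde2A-/- replicate 15 held 193 of Psmb8 and 1034 of Psmb5, and 92 of Psmb9 and 4300 of Psmb6. Psmb8 and Psmb9 had fewer counts than their constitutive partners in every heart, but the size of the share rests on annotated length. That length is the same in every heart, so it does not enter the comparison of genotypes. The log2 ratio of Psmb8 to Psmb5 was 1.25 higher in Pde2A-/- hearts (two-sided exact permutation test, p = 0.0823, adjusted over 3 ratios 0.123) and that of Psmb9 to Psmb6 1.35 higher (exact p = 0.0779, adjusted 0.123). Neither passed the test. Without replicate 7 the differences were 1.74 and 1.90, with no overlap of the genotypes and the smallest exact p that 5 against 5 hearts allow (0.00794, adjusted 0.0119). Psmb10 stood at 33.8% to 41.5% of Psmb7 in Pde2A-/- and 30.4% to 46.6% in Pde2A+/+ hearts, a log2 difference of 0.04 (exact p = 0.753). Psmb5 and Psmb6 were themselves lower in Pde2A-/- hearts (log2 fold changes -0.27 and -0.26, edgeR adjusted p = 0.0362 and 0.0294), and did not pass without replicate 7 (adjusted p = 0.0634 and 0.0503).

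**Figure D3:**
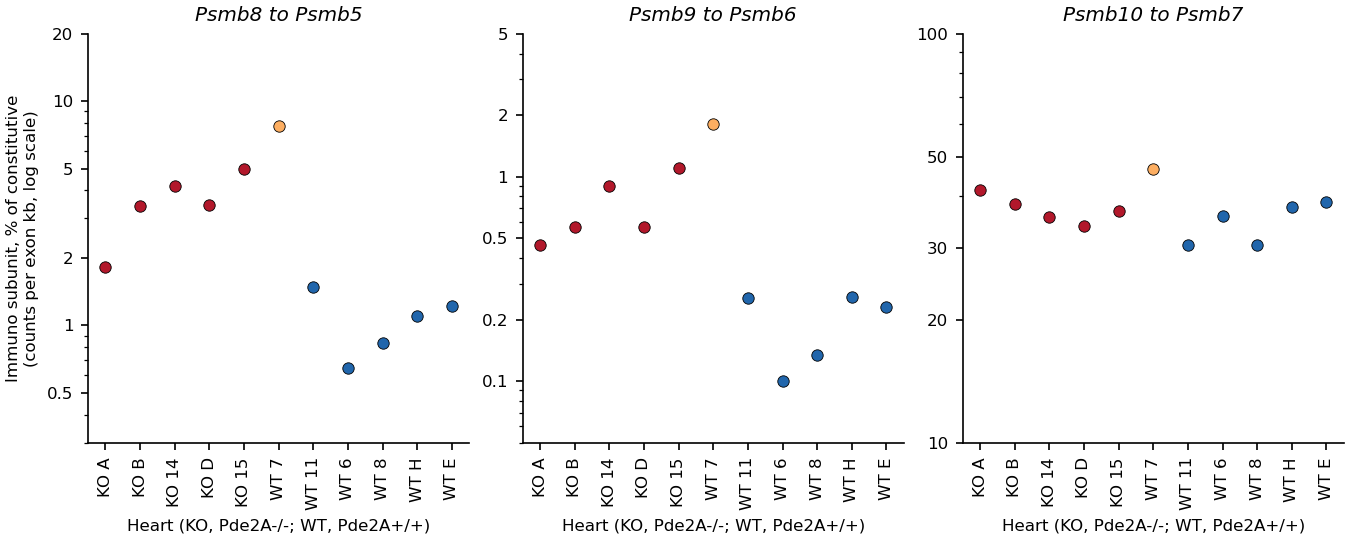
Each immunoproteasome subunit as a percent of the constitutive subunit it replaces (y axes, log scale, counts per exon kilobase) in each of the 11 hearts on the x axis. For Psmb8 and Psmb9 the 5 Pde2A-/- hearts (red) lie above 5 Pde2A+/+ hearts (blue) and below Pde2A+/+ replicate 7 (orange), and for Psmb10 the genotypes overlap.

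Nlrc5, the transactivator that binds class I promoters together with the RFX complex, was scarce. It measured 0.679, 0.637, 0.871, 0.666 and 1.32 CPM in Pde2A-/- replicates A, B, 14, D and 15, and 0.164, 0.306 and 0.522 CPM (lowest, median and highest) in Pde2A+/+ hearts. The genotypes did not overlap, and Pde2A+/+ replicate 7 lay with the other Pde2A+/+ hearts at 0.339 CPM. Nlrc5 was 2.68 times as high in Pde2A-/- hearts (log2 fold change 1.42 ± 0.29, SE, edgeR adjusted p = 0.00807). It rested on 6 to 48 counts per heart.

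The hearts of a genotype were not alike over the set of genes. Pde2A-/- replicate 15 was the highest Pde2A-/- heart for 8 of the 10 genes and replicate A the lowest for 7. Replicate 15 held 2.74 times as much Tap1 and 2.59 times as much H2-K1 as replicate A, but only 1.32 times as much Tapbp and 1.44 times as much B2m. Averaged over the 10 genes, the log2 level stood above the mean of the 5 other Pde2A+/+ hearts by 0.61 in replicate A, 0.96 in B, 1.19 in 14, 0.91 in D and 1.39 in 15. Pde2A+/+ replicate 7 stood 1.11 above them, inside the range of the Pde2A-/- hearts, and those 5 ranged from -0.29 to 0.22. Pde2A+/+ replicate 7 differed most in Psmb9 and Psmb8, which were 9.80 and 7.74 times the mean of the other 5 hearts, and in Tap2 and Tap1, at 3.39 and 3.18 times. H2-K1, H2-D1, B2m, Tapbp and Nlrc5 were only 1.03 to 1.27 times that mean in this heart.

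**Figure D4:**
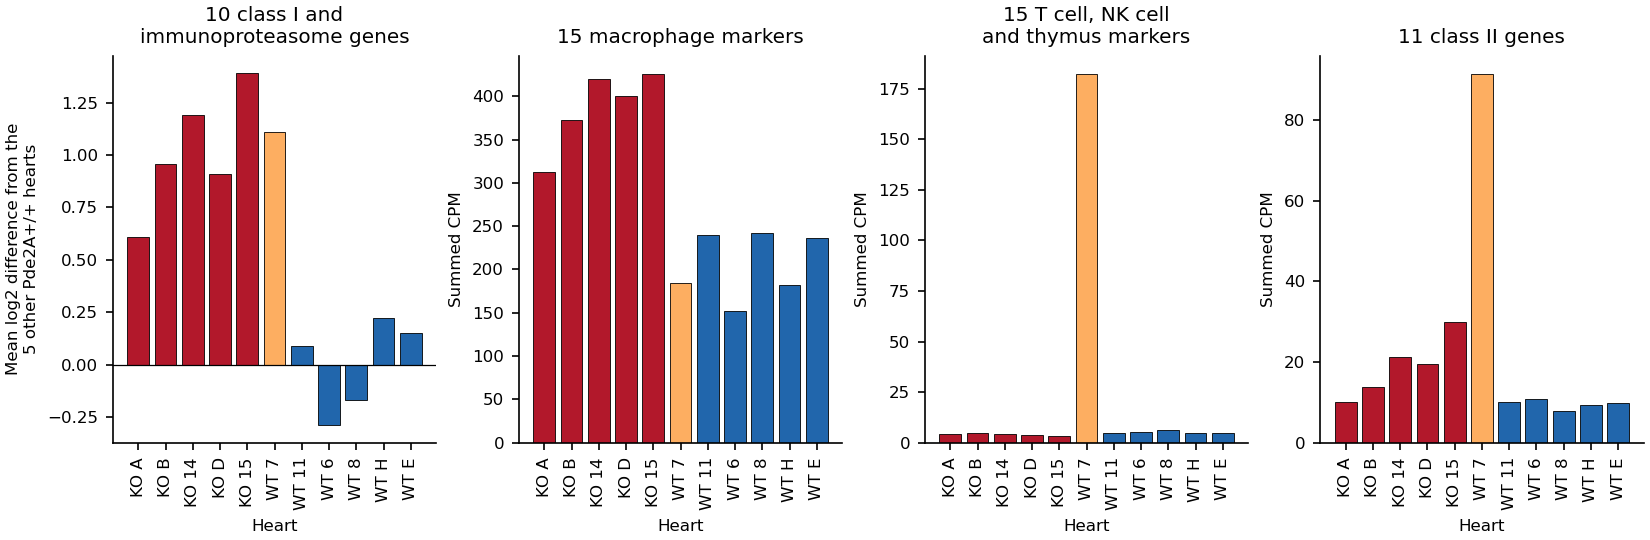
From left to right, the mean log2 difference of the 10 genes from the 5 other Pde2A+/+ hearts, and the summed CPM of 15 macrophage markers, of 15 T cell, natural killer cell and thymus markers and of 11 MHC class II genes, in each heart on the x axis. Pde2A+/+ replicate 7 (orange) stands with the Pde2A-/- hearts (red) for the 10 genes, with the Pde2A+/+ hearts (blue) for the macrophage markers and far above all others for the thymus and class II lists.

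Markers of several cell types moved with the genotype. Of 15 macrophage markers 14 were higher in Pde2A-/- hearts and 0 lower, with a median log2 fold change of 0.98 (0.93 without replicate 7). The list summed to 312 to 426 CPM in Pde2A-/- hearts and to 152 to 242 CPM in Pde2A+/+ hearts, with replicate 7 at 185 CPM and no marker at 0. In whole hearts, more macrophages, more RNA per cell and a higher level in other cells cannot be told apart, and the part of macrophages in the class I genes was not tested. Of 10 endothelial markers 4 were higher (3 without replicate 7) and 1 was lower, with a median log2 fold change of 0.19, and their sum ran from 1510 to 1619 CPM in Pde2A-/- and from 1207 to 1437 CPM in Pde2A+/+ hearts, without overlap. Of 8 fibroblast and mesenchyme markers 3 were higher and 0 lower, and their sums overlapped (7097 to 11494 and 5990 to 11079 CPM). The part of these cells was not tested either. Of 10 monocyte and neutrophil markers, 7 were higher and 1 lower, and their sum ran from 24.6 to 67.3 CPM in Pde2A-/- and from 3.16 to 15.8 CPM in Pde2A+/+ hearts. Of 9 erythroid markers found in the annotation 8 were higher and 0 lower. Their sums overlapped, at 487 to 964 CPM in Pde2A-/- and 127 to 510 CPM in Pde2A+/+ hearts. The part of erythroid cells, monocytes and neutrophils was not tested. Of the T cell, natural killer cell and thymus markers, Cd3e and Ncr1 were at 0 counts in all hearts other than Pde2A+/+ replicate 7. The sums of that list were 3.28 to 4.74 CPM in Pde2A-/- hearts and 4.68 to 6.22 CPM in those 5 Pde2A+/+ hearts, most of it the chemokine gene Ccl25 (2.81 to 4.23 and 3.96 to 5.54 CPM). The 10 B cell and dendritic cell markers summed to 28.6 to 37.1 CPM in Pde2A-/- and 23.6 to 28.5 CPM in Pde2A+/+ hearts, without overlap, and of the 7 tested 2 were higher and 1 lower (1 and 0 without replicate 7). In that list Ms4a1 was at 0 counts in all Pde2A-/- hearts, and Xcr1 in the 5 Pde2A+/+ hearts other than replicate 7. For 3 of the 10, every heart but replicate 7 had at most 3 counts, and the part of these cells was not tested. In Pde2A+/+ replicate 7, the part of thymus RNA in the Psmb8, Psmb9, Tap1 and Tap2 levels was not tested.

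Of the other class I-like and non-classical class I genes, 6 of 16 tested were higher and 0 lower, with a median log2 fold change of 0.55 (5 higher without replicate 7). H2-T24 had the largest change, at 2.74, 8.05, 6.30, 5.27 and 7.19 CPM in Pde2A-/- replicates A, B, 14, D and 15 against 0.418 to 0.845 CPM in Pde2A+/+ hearts (log2 fold change 3.24 ± 0.26, SE, edgeR adjusted p = 7.61e-06). H2-T24 was thus low in Pde2A+/+ replicate 7 (0.626 CPM), where Psmb8 and Psmb9 were high. H2-T23, which encodes Qa-1, the ligand of the natural killer receptor CD94/NKG2A, rose from 3.33 ± 0.726 to 7.58 ± 1.46 CPM (SD, edgeR adjusted p = 0.00049). H2-Q4 passed over 11 hearts (log2 fold change 0.61, adjusted p = 0.0379) but not without replicate 7 (adjusted p = 0.0632), and it shares 21.8% of its 50-base stretches with other loci.

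The genes that serve class I molecules but are used more widely did not follow them. Of 10 genes of peptide loading and trimming, such as the chaperones Calr, Canx and Pdia3 and the trimming peptidase Erap1, 0 were higher and 1 was lower, Blmh (log2 fold change -0.16, adjusted p = 0.0495). Of 9 proteasome activator and assembly genes 0 were higher and 1 was lower, Psmg4 (log2 fold change -0.26, adjusted p = 0.0309). Psme1 and Psme2, the interferon-responsive activator PA28 that serves the immunoproteasome, had log2 fold changes of 0.02 and 0.01 with adjusted p of 0.819 and 0.929. Of 14 constitutive core subunits 3 were lower (Psmb5, Psmb6 and Psma4) and 0 higher, and of 18 subunits of the regulatory particle 8 were lower and 0 higher, Adrm1 (-0.39), Psmc5 (-0.36) and Psmd6 (-0.29) with the largest changes. The 14 lower calls in the pathway outside the 10 genes depended on single hearts: 0 were left without Pde2A-/- replicate 14, D or 15 or Pde2A+/+ replicate 6, 1 without Pde2A+/+ replicate 7 or 8, and 9 to 20 without each of the other 5 hearts. The folds moved less than the calls, with log2 fold changes over the hearts left out from -0.32 to -0.22 for Psmb5 and from -0.30 to -0.21 for Psma4.

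**Figure D5:**
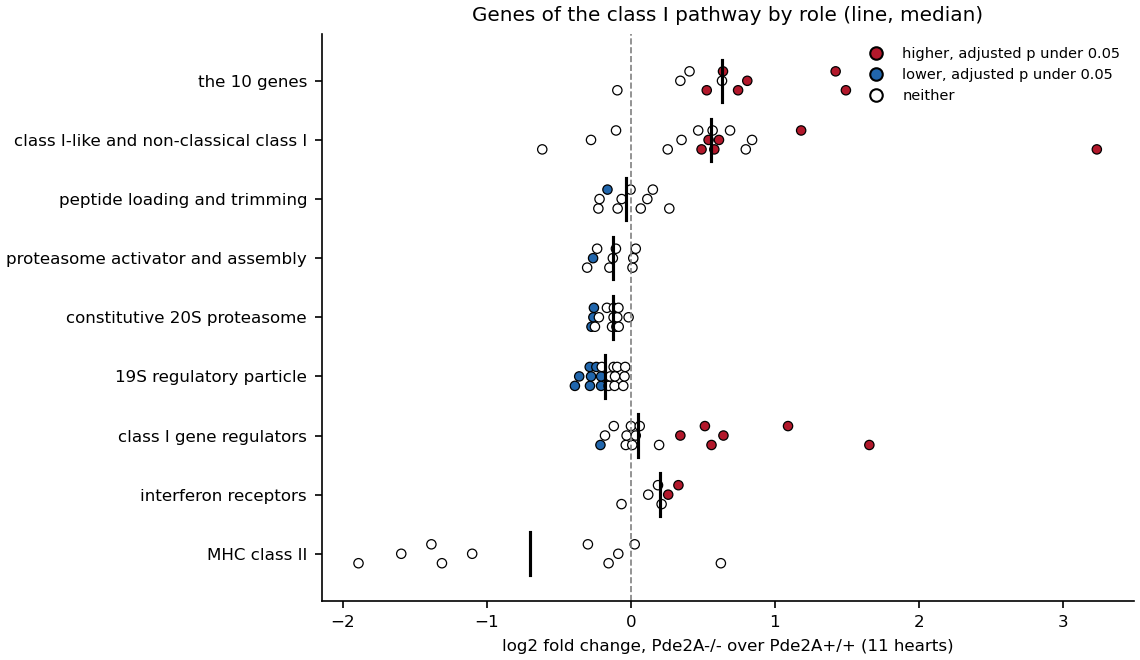
The log2 fold change over 11 hearts (x axis) of each tested gene, grouped by role on the y axis, red where higher and blue where lower at an adjusted p under 0.05, with the median of each group as a line. The called genes of the class I, class I-like and regulator groups lie to the right, apart from 1 regulator, and those of the loading, assembly and proteasome groups lie between -0.39 and 0.

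Among the regulators of class I genes, Irf9 and Stat2, which act downstream of interferon receptors, were higher and did not overlap between genotypes. Irf9 measured 24.7, 40.6, 37.9, 32.6 and 44.2 CPM in Pde2A-/- replicates A, B, 14, D and 15, and 11.2 CPM in Pde2A+/+ replicate 7 with 9.87 to 12.5 CPM in the other 5 (log2 fold change 1.66 ± 0.12, SE, edgeR adjusted p = 5.66e-06). Stat2 stood at 29.5 ± 3.62 and 18.9 ± 0.977 CPM (SD, log2 fold change 0.64, adjusted p = 0.000164). Irf1, a direct activator of Psmb9 and Tap1, measured 15.1, 15.7, 16.2, 19.3 and 16.7 CPM in Pde2A-/- hearts, 18.0 CPM in Pde2A+/+ replicate 7 and 9.35 to 11.8 CPM in the other 5. Replicate 7 and the Pde2A-/- hearts thus lay above the other 5 Pde2A+/+ hearts, with Pde2A-/- replicate D highest (log2 fold change 0.52, adjusted p = 0.0368). Rfx5, the DNA-binding subunit of the RFX complex, did not pass (log2 fold change -0.18, adjusted p = 0.226). In all, 6 of the 16 regulators were higher, Irf9, Stat2 and Irf1 among them, and 1 was lower (Nfyc), with a median log2 fold change of 0.05. Rfxank, also higher over 11 hearts, did not pass without replicate 7 (adjusted p = 0.0555).

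Of the 6 interferon receptor chains, Ifnar2 (log2 fold change 0.33, adjusted p = 0.0162) and Ifngr1 (0.26, adjusted p = 0.0158) were higher by edgeR. Transcripts of interferons themselves were near the limit of detection. Of 18 interferon genes, 15 had 0 counts in every heart, Ifnb1 among them, and Ifng had 1 count in each of Pde2A-/- replicates 14 and 15 and 0 elsewhere. A count of 0 allows up to 3 counts, or 0.0708 to 0.0833 CPM per heart, from counting error alone, so lower levels were not detectable. Ciita, the class II counterpart of Nlrc5, had 0.0833 to 0.401 CPM in Pde2A-/- hearts and 0.0523 to 0.247 CPM in 5 Pde2A+/+ hearts, but 2.999 CPM in replicate 7 (adjusted p = 0.358, and 0.414 without that heart). The 10 class II genes tested gave 0 calls in either direction over 11 hearts, and 10 of the 11 listed were highest in replicate 7.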

How the data were processed

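Stranded mRNA libraries (NEBNext Ultra II) of 11 E14.5 hearts were read single-end by Illumina sequencing. Mapping to GRCm38 (mm10) used STAR, whose version is not given in the sources used here, and the authors deposited raw counts per gene for each heart, without normalization or filtering, for reads of both strands and of either strand. The sense column was used. Reads on overlapping genes are left uncounted, and 19.6% to 22.4% of reads were not counted on a gene. Genotypes and replicate names came from the deposited labels.

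A total of at least 10 counts was required, which 24177 genes met. Genotypes were compared with edgeR 4.0.16 in R 4.3.3 (TMM, quasi-likelihood test, Benjamini-Hochberg adjustment over all genes tested, called at an adjusted p under 0.05). CPM values are TMM-normalized. GENCODE M21 gave names and positions for 55227 of 55487 identifiers. Exon length was that of all annotated exons of a gene merged, whether or not they were used in these hearts. Subunit ratios used counts plus 0.5 per exon kilobase, with a two-sided exact permutation test (scipy 1.17.1) on the difference of means over all splits of the hearts. No batch, litter or sex could enter the fit.

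The 10 genes and all gene lists were chosen with earlier results of these data known, so no list was tested as a set. Named genes are the 10, up to 3 genes of each pathway list with the largest changes among those called, 9 set regulators, constitutive subunits and interferons, and the 5 genes most like the 10 across hearts. A gene that this rule names is not reported here. Other genes in the text, such as H2-Ab1, Psme1, Psme2, Foxn1, Psmb11 and Alb, were named after their values were seen. Alternatives were DESeq2 1.42.0, its size factors, other filters, reads of both strands, the naming style of the replicates as a covariate, a fold of 1.5 and each heart left out in turn. Leaving out the 5 hearts with liver or thymus markers was an alternative chosen after seeing the data.

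On simulated data with 5 against 6 hearts and 23690 genes, edgeR recovered 92 of 100 genes with a log2 change of 1 and 74 of 100 with one of 0.585, with 6 wrong calls. With no change simulated, in 23659 genes, it made 0 calls and DESeq2 7. Recovery was not split by gene level, so recovery of genes as scarce as Nlrc5 and Psmb9 was not tested. The counts behind the 10 genes ran from 6 (Nlrc5) to 5559 (B2m) per heart, and the biological coefficient of variation common to all genes was 16.8%.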

Additional observations from a re-analysis of the deposited data

Results flagged for a closer look

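In 6 of the 26 groups of hearts examined, each of them 1 measure in 1 genotype, 1 heart lay farther from its group than a critical value for 95% of groups allows. Chance flags about 1 in 20 groups, but these groups are not separate, because the subunit ratios use counts of genes also examined alone. All 6 were Pde2A+/+ replicate 7, the heart with thymus markers, as the highest of 6. The gap to the next heart took up 0.776 of the whole range for Tap1 (8.32 CPM, next 3.18), 0.815 for Tap2 (11.4 CPM, next 4.25), 0.909 for Psmb8 (12.0 CPM, next 2.07) and 0.917 for Psmb9 (5.63 CPM, next 0.746). It took up 0.665 of the range for the log2 ratio of Psmb8 to Psmb5 (-3.69, next -6.07) and 0.675 for that of Psmb9 to Psmb6 (-5.78, next -8.61). These 4 genes are the neighbours in the cluster on chromosome 17. The cause was not tested.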

How the results depend on the processing

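The number of the 10 genes called higher stayed at 6 under DESeq2, its size factors, other filters, reads of both strands and the naming style as a covariate. It ranged from 6 to 9 with each heart left out in turn, 9 without Pde2A+/+ replicate 7, and was 5 without the 5 hearts that held liver or thymus markers, a comparison of 4 against 2 hearts. In that comparison H2-K1 (log2 fold change 1.08, edgeR adjusted p = 0.19), H2-D1 (0.77, 0.0556) and Nlrc5 (2.21, 0.0544) lost their calls, Psmb8 (1.93, 0.0403) and Psmb9 (2.38, 0.0278) gained them, and Psmb10 turned to 0.029 (0.919). The number past a fold of 2 ranged from 2 to 5 over the hearts left out, and was 6 without Pde2A-/- replicate A and Pde2A+/+ replicate 7 and 5 at a fold of 1.5.

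The other pathway genes called higher numbered 14, from 10 to 17 over the hearts left out, and 6 without the hearts with liver or thymus markers. Those called lower numbered 14, from 0 to 20 over the hearts left out, 24 under DESeq2 and 0 without the hearts with those markers. The log2 difference of Psmb8 to Psmb5 ranged from 1.02 to 1.74 over the hearts left out, and that of Psmb9 to Psmb6 from 1.06 to 1.90. Without Pde2A-/- replicate A and Pde2A+/+ replicate 7 they were 1.96 and 2.04 (exact permutation, adjusted p = 0.0238 for both). That of Psmb10 to Psmb7 ranged from -0.0125 to 0.11, turned below 0 without Pde2A-/- replicate A (-0.0018) and without Pde2A+/+ replicate 11 (-0.0124) or 8 (-0.0125), and was -0.015 among hearts named by letters. Apart from the smaller number of hearts, the cause of these changes was not tested. DESeq2 gave no adjusted p for Psmb8. No paired analysis was possible because the genotypes share no replicate names. Depth limits Nlrc5 most, with 6 to 48 counts per heart, and then Psmb9, with 11 to 216. Psmb8 had 39 to 459 counts per heart.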

Other observations

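H2-Ab1, a chain of the class II molecules that antigen-presenting cells display, spread along the Pde2A-/- hearts. It measured 3.92, 6.66, 13.4, 12.96 and 23.1 CPM in Pde2A-/- replicates A, B, 14, D and 15, 30.7 CPM in Pde2A+/+ replicate 7 and 2.54 to 4.27 CPM in the other 5 Pde2A+/+ hearts. Replicate A was the lowest and replicate 15 the highest Pde2A-/- heart, as for H2-K1 and Tap1. H2-Ab1 was the single class II gene called without replicate 7 (log2 fold change 1.92, edgeR adjusted p = 0.0079), and over 11 hearts it was not (0.63, adjusted p = 0.586). Its partner chain H2-Aa did not pass in either fit, at 0.17 without replicate 7 (adjusted p = 0.76).

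Among the 14015 genes that averaged at least 1 CPM, those whose deviations from the genotype means were most like the mean deviation of the 10 genes over 11 hearts were Parp3 (Pearson's r 0.98), Fam234b (0.95), Gbp7 (0.95), Wscd1 (0.95) and B4galnt1 (0.94). Gbp7 encodes an interferon-inducible GTPase and Parp3 an ADP-ribosyltransferase. These are the largest of 14015 correlations, the values share their hearts and libraries, and no p is given. Over the 10 hearts without it, Parp3 (0.95) was again the highest, followed by Osmr, Tbc1d25, Zbtb7b and Dubr.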
